A study of Mus musculus with 6 samples.

Results

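The transcripts described here encode the beta-2 (CD18) integrins of leukocytes, their cell-surface ligands and the adaptors that bind their cytoplasmic tail. The members were chosen by gene name: the alpha chains Itgam, Itgax, Itgal and Itgad, the common beta chain Itgb2, the ligands Icam1 and Icam2, and the adaptors Fermt3 and Tln1. These are 9 of 46078 gene rows in the deposited count table, and all 9 were among the 15147 genes with enough counts to be tested. Alveolar macrophages, the phagocytes that reside in the airspaces, had been sorted from untreated mouse lungs, and their polyadenylated RNA was sequenced. Car4fl/fl-CD11cCre mice (n = 3) carried loxP-flanked alleles of Car4, the gene of membrane-anchored carbonic anhydrase 4, together with a Cre recombinase driven by CD11c. Car4fl/fl mice (n = 3) carried the same alleles without the recombinase, and no group with the recombinase alone was analysed here. Age, sex and the exact Cre construct were not given in the sources used here. An effect of the transgene itself therefore cannot be told apart from an effect of Car4 loss.

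Beta-2 integrins are heterodimers in which 1 of the alpha chains pairs with CD18, and without CD18 the alpha chains do not reach the cell surface. They hold leukocytes to ICAMs on other cells and bind complement-coated particles for uptake. Binding of talin and kindlin to the beta tail switches them to the high-affinity state, and ligand binding then signals inward through Src-family kinases and Syk. CD11c is abundant on mouse alveolar macrophages and CD11b is low there, a pair of markers used to sort these cells away from interstitial macrophages and monocytes. Itgax is also the gene whose regulatory sequence drives the Cre, which gives the locus a place in the design of the experiment as well as in its readout.

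The 4 alpha chain genes lie on the plus strand of mouse chromosome 7 in GRCm38. Itgam (128062640 to 128118491), Itgax (128129547 to 128150657) and Itgad (128154376 to 128223816) follow each other in this order. The end of Itgam lies 11056 bases before the start of Itgax, and the end of Itgax lies 3719 bases before the start of Itgad. Itgal (127296260 to 127335138) ends 727.502 kb before Itgam. The alpha chain genes share a similar structure of 30 (Itgam), 30 (Itgax), 34 (Itgad) and 32 (Itgal) merged exon blocks, against 16 for Itgb2 on chromosome 10 (77530252 to 77565708, plus strand). Icam1 lies on chromosome 9 (21015985 to 21028817, plus strand), Icam2 on chromosome 11 (106377656 to 106388075, minus strand), Fermt3 on chromosome 19 (6998958 to 7019469, minus strand) and Tln1 on chromosome 4 (43531519 to 43562691, minus strand).

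The 250 bases before the RefSeq start of Itgam (chr7:128062390-128062639, plus strand) and of Itgax (chr7:128129300-128129549, plus strand) are shown because the largest differences among the members were at these neighbouring genes. Of the 9 members, 5 had an entry in the RefSeq promoter table used (GRCm38.p6). Capitals mark matches, on either strand, to motif letters that were picked with the sequences in view.
Itgam: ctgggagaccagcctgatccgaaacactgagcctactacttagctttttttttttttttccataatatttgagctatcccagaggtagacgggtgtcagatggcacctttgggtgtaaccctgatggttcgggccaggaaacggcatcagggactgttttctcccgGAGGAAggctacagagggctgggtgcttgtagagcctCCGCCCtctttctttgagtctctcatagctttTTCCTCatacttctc
Itgax: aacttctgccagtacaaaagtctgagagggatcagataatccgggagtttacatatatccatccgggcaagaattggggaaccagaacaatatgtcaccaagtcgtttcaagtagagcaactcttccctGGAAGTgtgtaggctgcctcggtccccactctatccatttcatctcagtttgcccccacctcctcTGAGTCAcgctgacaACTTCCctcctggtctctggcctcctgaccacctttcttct
The Itgam window held GAGGAA, an ETS core of the type bound by PU.1, at 84 bases before the start on the plus strand and at 15 bases before it on the minus strand, and a GC box (GGGCGG, minus strand) at 47 bases. The Itgax window held the ETS core GGAAGT at 121 bases on the plus strand and at 41 bases on the minus strand, and an AP-1 site (TGANTCA) at 56 bases. Neither window held the Runx letters TGTGGT. Over 32851 promoter windows of the same length, 23.3% held GAGGAA, 19.7% GGAAGT, 6.7% TGANTCA, 32.7% GGGCGG and 14.0% TGTGGT. The matches describe these letters and are not evidence of binding.

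The libraries held 53824475 to 65443314 counts in genes. Values are CPM, reads in proportion to library size with TMM factors, in which 3 counts correspond to 0.0465 to 0.0557 CPM. Car4 was 40.2, 46.9 and 36.3 CPM in the Cre libraries, against 499.3, 384.7 and 270.4 CPM in the Car4fl/fl libraries. It fell to 10.7% of the control mean (log2 fold change -3.23 ± 0.22 SE, edgeR adjusted p = 0.0047). The targeted gene thus went with the label in all 6 libraries. With edgeR's quasi-likelihood test and an adjusted p below 0.05, 1 gene was called higher (0.0066% of those tested) and 1 lower (0.0066%). The unadjusted p was under 0.05 for 990 higher and 951 lower genes. DESeq2 on the same genes called 345 higher (2.28%) and 219 lower (1.45%). When edgeR was run with all 27536 genes that had counts, unfiltered, it called 340 higher (1.23%) and 183 lower (0.665%). Limma-voom called the same 2 genes as edgeR. All 3 Cre libraries lay above all 3 control libraries for 8.63% of the tested genes and below them for 9.22%. Of 16 alveolar macrophage markers, 3 lay above all control libraries and 2 below them, with Pparg at 256 CPM in the Cre libraries and 267 CPM in the control libraries. The 3 higher ones were Marco, Ear6 and Chil3, with log2 fold changes of 0.62, 1.15 and 0.77. The 2 lower ones were Cidec and Siglecf, with log2 fold changes of -0.41 and -0.37. Siglecf encodes a lectin that commonly marks these cells. It was at 547.1 ± 71.7 CPM in the Cre libraries and 707.5 ± 44.5 CPM in the control libraries (SD, n = 3 each).

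Among the members, Itgam and Itgax were the pair with the clearest separation: Itgam averaged 4.88 times and Itgax 1.44 times its control level, with no overlap between the groups. Itgal was slightly lower in the Cre libraries, Itgad varied most among the control mice, and the common chain Itgb2, Icam1, Fermt3 and Tln1 had log2 fold changes between -0.01 and 0.07. By edgeR none of the 9 members passed the threshold in either direction, and their unadjusted p was under 0.05 for 2 higher and 1 lower member. Over all 15147 tested genes that count was 990 higher and 951 lower. DESeq2 called 2 of the 9 higher (Itgam and Itgax) and 0 lower, edgeR without the filter called the same pair, and limma-voom called 0. Of all tested genes, DESeq2 called 2.28% higher and 1.45% lower. The groups did not overlap for 3 members above the control libraries and for 1 below them, beside 8.63% and 9.22% of all tested genes. Of the 9, 6 lay above the control level, with a median log2 fold change of 0.02, against 49.4% and a median of -0.0019 over all tested genes.

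**Figure D1:**
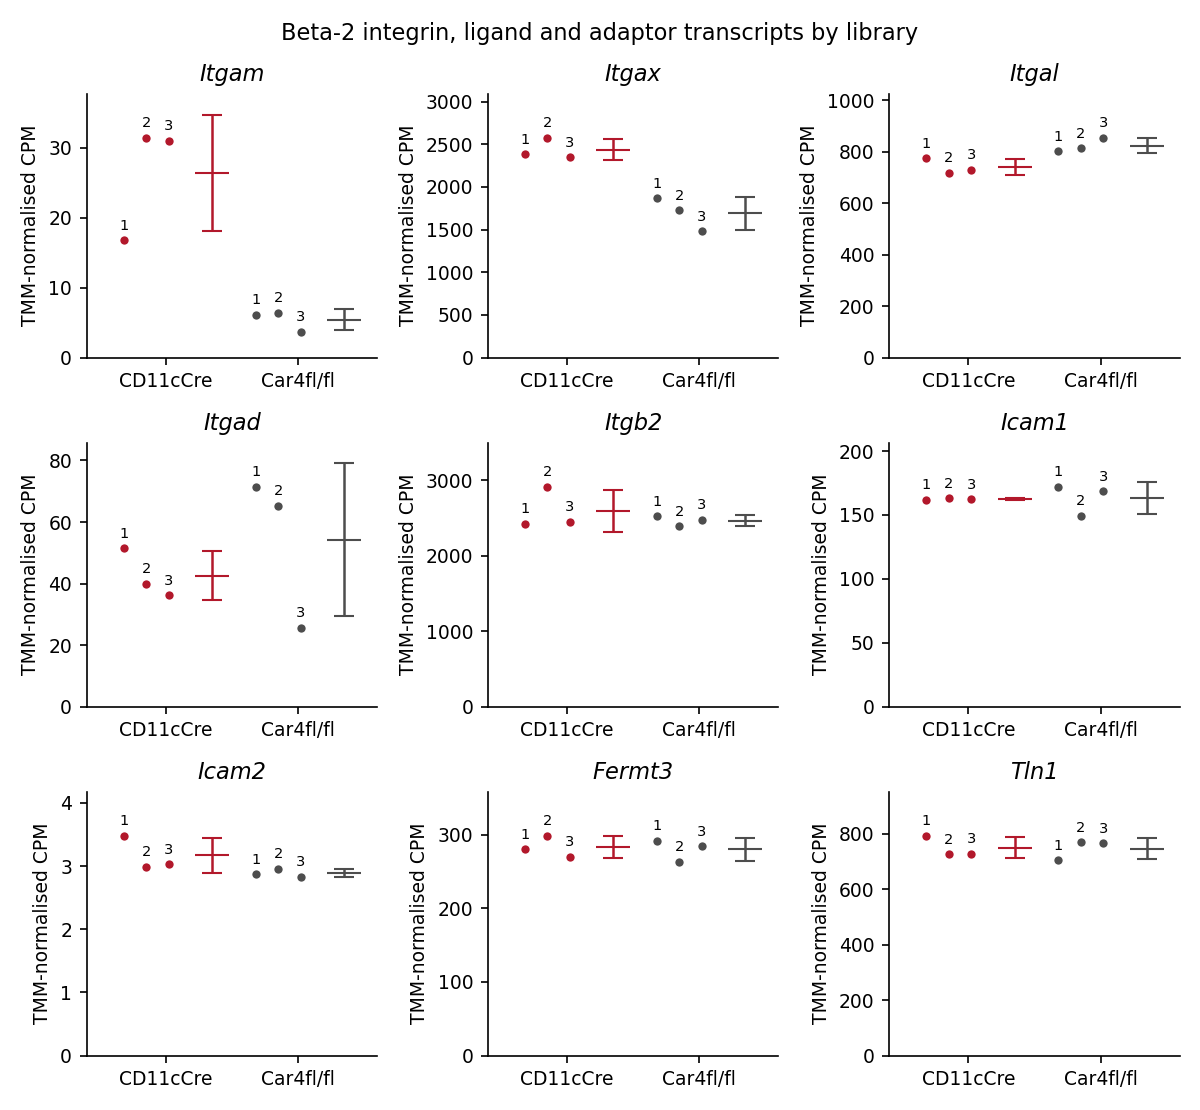
TMM-normalised CPM (y axis, from 0) of each member in each library, with the Cre libraries on the left of each panel, the Car4fl/fl libraries on the right, replicate numbers above the points, and mean ± SD (n = 3) as bars. Itgam and Itgax separate upward in the Cre libraries, at 16.8 to 31.5 CPM and 2350 to 2578 CPM.

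Itgam encodes CD11b, the alpha chain of complement receptor 3, which binds iC3b, fibrinogen and ICAM-1. It had 16.8, 31.5 and 31.0 CPM in the Cre libraries (995, 2032 and 1669 counts), against 6.16, 6.40 and 3.70 CPM in the Car4fl/fl libraries (371, 385 and 210 counts). Every Cre library lay above every control library, and Cre replicate 1 lay nearest to them. Relative to the control mean the Cre libraries stood at 3.10, 5.81 and 5.72 times. The log2 fold change was 2.28 ± 0.29 (SE), with a 95% interval of 1.62 to 2.95, and it ranked number 7 by p among all tested genes, with an edgeR adjusted p of 0.116 and a DESeq2 adjusted p of 5.97e-07. Over the 15 alternatives run, the log2 fold change lay between 2.07 and 2.52 and the adjusted p between 5.97e-07 and 0.462. Leaving out Cre replicate 1 (edgeR adjusted p = 0.00254) or control replicate 3 (0.0442) brought Itgam past the threshold. In these bulk samples, more cells that express a gene and more RNA of it per cell cannot be told apart. Gm49368, an annotated gene on the same strand, spans 128062683 to 128128160 and covers nearly all of Itgam, so its reads cannot be told apart from those of Itgam.

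Markers of other cells that carry CD11b were also read. Summed over 12 markers of interstitial macrophages, the level was 14.3, 44.5 and 86.6 CPM in the Cre libraries, against 9.38, 11.2 and 7.94 CPM in the Car4fl/fl libraries. Of these 12, 6 lay above all control libraries and 1, Cd163, below them, beside 8.63% and 9.22% of all tested genes. Folr2, Tmem119 and Ccl12 were under 0.5 CPM in every library, and Tmem119 was among the 6. The complement genes C1qa, C1qb and C1qc were also among the 6. C1qa was 1.88, 12.4 and 18.2 CPM in the Cre libraries, against 0.681, 1.01 and 0.722 CPM in the control libraries. Cd163 was 0.423, 0.201 and 0.297 CPM in the Cre libraries, against 0.714, 1.30 and 0.651 CPM in the control libraries. Lyve1 and Folr2 also had negative log2 fold changes (-0.23 and -0.52), with overlap, while 9 of the 12 lay above the control level. Cre replicate 1 was the lowest Cre library for both Itgam and this marker sum, while replicates 2 and 3 differed in the marker sum and hardly in Itgam. Classical monocyte markers summed to 24.1 to 35.7 CPM in the Cre libraries and 22.0 to 28.5 CPM in the control libraries, with 1 of 8 above all control libraries and 1 below. Nonclassical monocyte markers summed to 593.6 to 708.0 CPM in the Cre libraries and 726.8 to 853.2 CPM in the control libraries. Of these 6, 0 lay above all control libraries and 1, Nr4a1, below them. Nr4a1 made up most of the sum, at 466.7 CPM on average in the Cre libraries and 595.7 CPM in the control libraries. Neutrophil markers summed to 101.5 to 110.6 CPM in the Cre libraries and 86.1 to 95.6 CPM in the control libraries. Of the 7 tested, 7 lay above the control level, beside 49.4% of all tested genes, with a median log2 fold change of 0.47. Only 1, Retnlg, lay above all control libraries, beside 8.63% of all tested genes. The defining gene Ly6g had 0 counts everywhere, and Retnlg, Camp, Ngp and Ltf were under 0.5 CPM. Eosinophil markers summed to at most 0.186 CPM in the Cre libraries and 0.150 CPM in the control libraries. The part of the interstitial macrophage and other markers in the Itgam difference was not tested.

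Itgax encodes CD11c, the alpha chain of complement receptor 4. It had 2386, 2578 and 2350 CPM in the Cre libraries, against 1869, 1725 and 1484 CPM in the Car4fl/fl libraries. The lowest Cre library stood well above the highest control library, and the 3 control libraries were spread more widely than the 3 Cre libraries. The log2 fold change was 0.53 ± 0.09 (SE), with a 95% interval of 0.31 to 0.74, an edgeR adjusted p of 0.146 and a DESeq2 adjusted p of 2.89e-06. Under the 15 alternatives it stayed between 0.44 and 0.60, with adjusted p between 2.89e-06 and 0.468, and without the filter edgeR gave 0.0111. The difference was present in a gene at the 99.8th percentile of mean level among the tested genes, where counting error is small. Dendritic cell markers, which include other cells rich in CD11c, summed to 26.2 to 49.1 CPM in the Cre libraries and 26.9 to 36.7 CPM in the control libraries. Of these 10, 0 lay above all control libraries and 1 below, beside 8.63% and 9.22% of all tested genes. Xcr1 was under 0.5 CPM in every library. The part of the dendritic cell markers in the Itgax difference was not tested. Whether the transgene carries Itgax exons that would add reads to this row was not given in the sources used here.

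Itgal encodes CD11a, the alpha chain of the integrin that binds ICAM-1 and ICAM-2. It had 774, 718 and 729 CPM in the Cre libraries, against 802, 813 and 854 CPM in the Car4fl/fl libraries. All Cre libraries lay below all control libraries, by a margin that was small between the nearest pair. The log2 fold change was -0.15 ± 0.06 (SE; 95% interval -0.29 to -0.02), with an edgeR adjusted p of 0.344 and a DESeq2 adjusted p of 0.178. Its direction differed from that of Itgam and Itgax, and its size was smaller than theirs.

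Itgad encodes CD11d, the alpha chain next to Itgax on the other side from Itgam. It had 51.4, 40.0 and 36.3 CPM in the Cre libraries, against 71.5, 65.3 and 25.7 CPM in the Car4fl/fl libraries. The groups overlapped because control replicate 3 was the lowest of all 6 libraries, and the control libraries spanned 2.78-fold. The coefficient of variation was 18.5% in the Cre libraries and 45.9% in the control libraries. The log2 fold change was -0.35 ± 0.34 (SE; 95% interval -1.13 to 0.43; edgeR adjusted p = 0.745). Without control replicate 3 it was -0.69 with an adjusted p of 0.12. Cox6a2, which lies inside the Itgad interval on the opposite strand, was also lowest in control replicate 3, with 26 counts there against 68 and 90 in the other control libraries.

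Itgb2, the chain that all 4 alpha chains need, had 2428, 2919 and 2451 CPM in the Cre libraries, against 2528, 2396 and 2482 CPM in the Car4fl/fl libraries. Only Cre replicate 2 lay apart, above all others. The log2 fold change was 0.07 ± 0.09 (SE), with a 95% interval of -0.12 to 0.27 and an edgeR adjusted p of 0.790. It turned to -0.02 without Cre replicate 2.

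The ligands are counter-receptors that macrophages themselves carry. Icam1 had 162, 163 and 162 CPM in the Cre libraries, against 172, 149 and 169 CPM in the Car4fl/fl libraries, with the Cre values inside the control range (log2 fold change -0.01 ± 0.06 SE; 95% interval -0.16 to 0.14; edgeR adjusted p = 0.97). Its sign turned without control replicate 1 (0.03) or 3 (0.01). Icam2, a constitutive ligand best known from endothelium, had 3.48, 2.99 and 3.03 CPM in the Cre libraries, against 2.87, 2.96 and 2.83 CPM in the Car4fl/fl libraries. The groups did not overlap, yet 2 of the Cre libraries lay close to the highest control library (log2 fold change 0.13 ± 0.14 SE; 95% interval -0.18 to 0.45; edgeR adjusted p = 0.764). Endothelial markers summed to 168.7 to 193.1 CPM in the Cre libraries and 133.7 to 154.6 CPM in the control libraries. Of these 7 markers 1, Vwf, lay above all control libraries, beside 8.63% of all tested genes. Vwf made up most of the sum at 151.5, 178.8 and 152.8 CPM in the Cre libraries, against 131.4, 135.7 and 116.7 CPM in the control libraries. The other markers overlapped between the groups, and the part of endothelial RNA in the Icam2 values was not tested.

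The adaptors link the beta tail to actin and activate the integrin. Fermt3, which encodes kindlin-3, had 280, 299 and 270 CPM in the Cre libraries, against 292, 263 and 285 CPM in the Car4fl/fl libraries. Tln1, which encodes talin-1, had 793, 726 and 728 CPM in the Cre libraries, against 703, 769 and 766 CPM in the Car4fl/fl libraries. For both genes the groups overlapped, and neither had a library far from the rest. The 95% intervals of the log2 fold changes were -0.13 to 0.16 for Fermt3 and -0.15 to 0.16 for Tln1, with edgeR adjusted p of 0.951 and 0.985, and both signs turned when 1 library was left out. The ends of Fermt3 and Tln1 overlap Trpt1 and Creb3 on the opposite strand, and reads in the shared bases cannot be told apart.

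Levels of different genes were compared per length, as RPKM, the CPM per kilobase of merged exons. In the Cre libraries Itgb2 was highest at 851.7 ± 90.9 RPKM (SD, n = 3), followed by Itgax (507.6), Itgal (112.7), Tln1 (76.4), Fermt3 (48.9), Icam1 (37.3), Itgad (9.44), Itgam (5.26) and Icam2 (1.66). In the Car4fl/fl libraries Itgb2 was at 808.8 ± 22.0 RPKM, followed by Itgax (352.5), Itgal (125.3), Tln1 (76.1), Fermt3 (48.4), Icam1 (37.5), Itgad (12.01), Icam2 (1.52) and Itgam (1.08). The order was the same except that Itgam stood above Icam2 in the Cre libraries and below it in the control libraries. No neighbours in either order had overlapping ranges over the 3 libraries. In both groups the RPKM of Itgam stayed below that of Itgax, Itgal and Itgad in every library.

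The alpha chains together reached 629.2, 661.2 and 614.4 RPKM in the Cre libraries, against 528.4, 498.6 and 445.5 RPKM in the Car4fl/fl libraries. Per RPKM of Itgb2 the sum was 0.749 ± 0.052 in the Cre libraries and 0.607 ± 0.051 in the control libraries (SD, n = 3 each). Itgax made up 79.9 ± 1.15% of the alpha chain RPKM in the Cre libraries and 71.7 ± 2.17% in the control libraries. The Itgal share was 17.8 ± 1.13% in the Cre libraries and 25.7 ± 3.14% in the control libraries, and the Itgam share 0.828 ± 0.258% in the Cre libraries and 0.218 ± 0.047% in the control libraries. For each of these 5 measures all Cre libraries lay on 1 side of all control libraries. The 2-sided exact permutation test over the 6 libraries gave p = 0.1 for each, the smallest that 20 arrangements allow, and 0.1125 after Benjamini-Hochberg adjustment over 9 such measures. The Itgad share was 1.49% in the Cre libraries and 2.39% in the control libraries, and overlapped (exact permutation p = 0.4).

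Itgam also stood higher relative to its neighbour Itgax. For every 1000 Itgax counts there were 7.05, 12.2 and 13.2 Itgam counts in the Cre libraries, against 3.29, 3.71 and 2.49 in the Car4fl/fl libraries. The log2 ratio of Itgam to Itgax CPM was -6.58 ± 0.49 in the Cre libraries and -8.32 ± 0.30 in the control libraries (SD, n = 3 each), a difference of 1.74 (exact permutation p = 0.1, the smallest possible). With 1 library left out the difference lay between 1.57 and 2.02. The adjacent genes thus differed by unequal amounts.

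**Figure D2:**
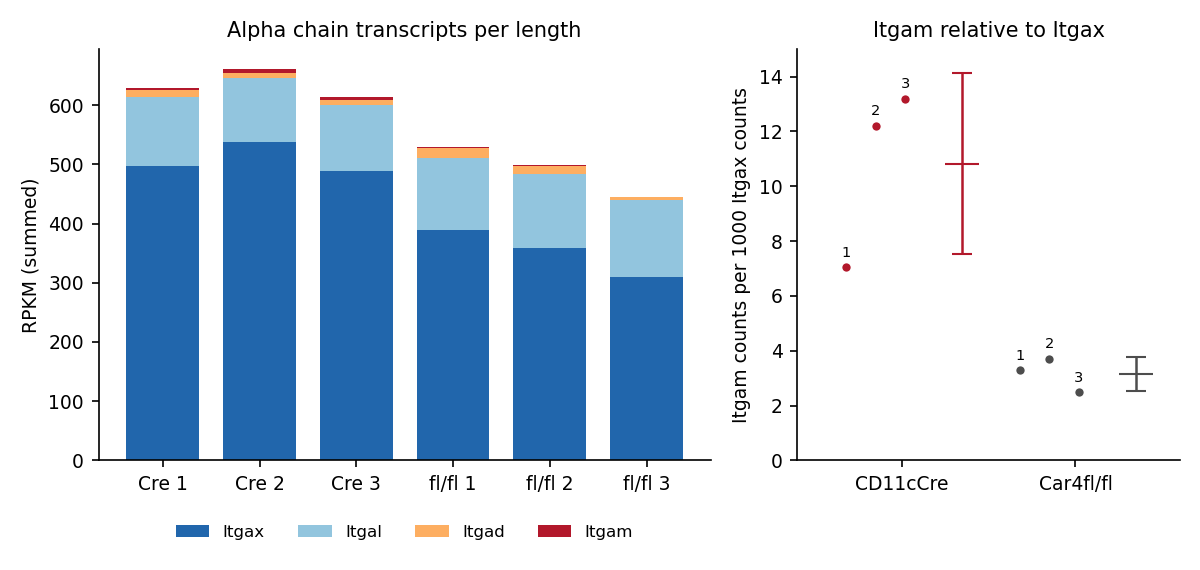
Left, RPKM (y axis, from 0) of the 4 alpha chains stacked for each Cre library and then each Car4fl/fl library. Right, Itgam counts per 1000 Itgax counts in each library with mean ± SD (n = 3), from 7.05 to 13.2 in the Cre libraries and 2.49 to 3.71 in the Car4fl/fl libraries.

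Beyond the integrin genes, the neighbourhood of Itgax showed small differences. Within 500 kb on either side of Itgax the GENCODE annotation placed 64 genes, of which 42 had a row in the table and 31 were tested. By edgeR none of the 31 was called. The unadjusted p was under 0.05 for 3 higher and 4 lower genes, beside 990 and 951 of all 15147 tested genes. DESeq2 called 2 higher, Itgam and Itgax, and 0 lower, beside 2.28% and 1.45% of all tested genes. Limma-voom called 0. The 28 tested genes other than Itgam, Itgax and Itgad had log2 fold changes between -0.48 (Gm26690) and 0.53 (Tgfb1i1), with a median of -0.04, and 11 lay above the control level. Among the 22 of these that averaged 1 CPM or more the range narrowed to -0.26 (Armc5) to 0.19 (Kat8).

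The groups did not overlap for 3 of the 31 genes above the control libraries (Itgam, Itgax and Kat8) and for 5 below them, among them Hsd3b7, Bckdk, Armc5 and Ctf2, beside 8.63% and 9.22% of all tested genes. Hsd3b7, an enzyme of bile acid and oxysterol metabolism, was at 400.0 ± 37.5 CPM in the Cre libraries and 466.9 ± 8.67 CPM in the control libraries (SD, n = 3 each; log2 fold change -0.22, edgeR adjusted p = 0.27). Pycard, the inflammasome adaptor about 136 kb before Itgax, was at 40.6 ± 5.42 CPM in the Cre libraries and 39.2 ± 5.49 CPM in the control libraries. Tgfb1i1, whose log2 fold change of 0.53 matched that of Itgax, averaged 0.757 CPM in the Cre libraries and 0.523 CPM in the control libraries, which overlapped. Among genes of at least 1 CPM on average in this window, the log2 fold changes of Itgam and Itgax were the highest.

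**Figure D3:**
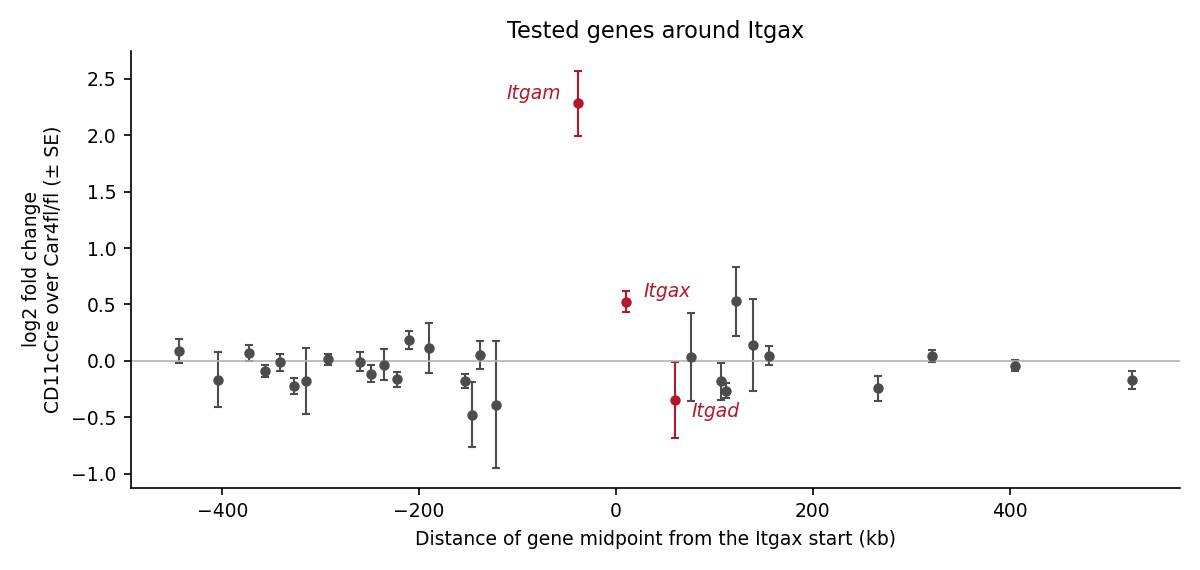
Log2 fold change ± SE (y axis), Cre over Car4fl/fl, of the 31 tested genes against distance of the gene midpoint from the Itgax start in kb (x axis). Itgam (2.28) stands above all others, Itgax lies at 0.53, and the genes other than Itgam, Itgax and Itgad lie between -0.48 and 0.53.

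By the root mean square difference of centred log2 CPM over the 6 libraries, the pattern of Itgam was most like Sdc4 (0.350), Slc30a4 (0.352), Igf1 (0.366), Sestd1 (0.367) and Prnp (0.373) among 10822 genes that averaged 1 CPM or more. Predicted genes (names such as Gm or Rik) and pseudogenes were left out of the 10822. Sdc4, the heparan sulfate proteoglycan syndecan-4, had 2.52, 7.22 and 8.71 CPM in the Cre libraries, against 1.16, 0.981 and 0.950 CPM in the Car4fl/fl libraries. Igf1, the secreted growth factor, had 27.1, 88.6 and 80.2 CPM in the Cre libraries, against 23.4, 18.1 and 10.01 CPM in the Car4fl/fl libraries. In both, Cre replicate 1 was the Cre library nearest to the control libraries. Both were picked for their likeness to Itgam, so this shared order is no separate observation. The pattern of Itgax was most like Lamc1 (0.0345), Zcchc11 (0.0951), Rasgef1a (0.0993), Marco (0.103) and RP23-113M20.5 (0.105). Marco, a scavenger receptor of alveolar macrophages, had 468.5, 504.7 and 393.1 CPM in the Cre libraries, against 311.1, 296.4 and 280.1 CPM in the Car4fl/fl libraries. Among the members the closest pair was Icam1 and Fermt3 (0.0462), and Itgam was nearest to Itgax (0.931).

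The wider integrin pathway was read from 10 lists, ordered below by role. No gene of these lists passed the threshold by edgeR or by limma-voom. The counts at an unadjusted p and by DESeq2 follow. Over all 15147 tested genes, the unadjusted p was under 0.05 for 990 higher and 951 lower. DESeq2 called 2.28% of all tested genes higher and 1.45% lower. For 11 tested genes of the Itgb2 and ligand list the median log2 fold change was -0.01, the unadjusted p was under 0.05 for 1 higher and 1 lower gene, and DESeq2 called 1. That gene was C3, whose fragment iC3b is a ligand of CD11b and CD11c: it had 379, 583 and 542 CPM in the Cre libraries, against 366, 328 and 309 CPM in the Car4fl/fl libraries. C3 differed by a log2 fold change of 0.58 ± 0.15 (SE), at an edgeR adjusted p of 0.185 and a DESeq2 adjusted p of 0.00197. All Cre libraries lay above all control libraries, with Cre replicate 1 nearest to them. F11r, the junctional adhesion molecule A that binds CD11a, was at 288.9 ± 23.3 CPM in the Cre libraries and 332.3 ± 25.1 CPM in the control libraries without overlap, and Icam5 at 2.05 CPM in the Cre libraries and 2.92 CPM in the control libraries with overlap.

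Alpha chains of other integrin families had a median log2 fold change of 0.21 over 12 tested genes, of which 6 lay above the control level. Of those 6, Itga1 averaged 17.1 CPM over all libraries, and Itga2, Itga3, Itga7, Itga9 and Itgae averaged under 1 CPM. The abundant chains Itga4, Itga5, Itga6 and Itgav lay below the control level. The unadjusted p was under 0.05 for 2 higher genes and 1 lower. DESeq2 called 1, Itga1, the collagen-binding chain, at 21.2 ± 6.48 CPM in the Cre libraries and 13.1 ± 2.71 CPM in the control libraries (SD, n = 3 each; edgeR adjusted p = 0.294, DESeq2 adjusted p = 0.0432). The more abundant fibronectin-receptor chains Itga5 and Itga4 were at 122.9 and 149.6 CPM in the Cre libraries and 134.1 and 173.2 CPM in the control libraries. Itga9 was at 0.889 CPM in the Cre libraries and 0.448 CPM in the control libraries. Among 6 other beta chains the unadjusted p was under 0.05 for 1 higher and 0 lower, and DESeq2 called 0. This was Itgb3, with 0.152, 0.558 and 2.58 CPM in the Cre libraries, against 0.249, 0.166 and 0.317 CPM in the Car4fl/fl libraries. Cre replicate 3 was the highest and Cre replicate 1 the lowest of all 6 libraries. Itgb1 was at 780.1 ± 17.3 CPM in the Cre libraries and 753.9 ± 18.5 CPM in the control libraries, and Itgb5 at 315.5 ± 17.95 CPM in the Cre libraries and 299.6 ± 9.79 CPM in the control libraries.

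Of 20 tested genes that take part in inside-out activation, 3 higher genes and 1 lower had an unadjusted p under 0.05, with a median log2 fold change of 0.01. DESeq2 called 1, Fyb, the adaptor that links SKAP proteins to talin-dependent activation, at 1.35, 4.49 and 4.01 CPM in the Cre libraries, against 1.36, 1.13 and 0.898 CPM in the Car4fl/fl libraries (edgeR adjusted p = 0.199, DESeq2 adjusted p = 0.00669). Cre replicate 1 lay inside the control range. Tln2, the second talin gene, was at 9.86 ± 5.67 CPM in the Cre libraries and 3.75 ± 2.00 CPM in the control libraries, with overlap. Rap1gap, which switches off Rap1, was at 1.51 CPM in the Cre libraries and 0.791 CPM in the control libraries. The actin regulator Vasp and the GTPase Rap1b were at 447.1 and 574.6 CPM in the Cre libraries, and at 500.7 and 580.2 CPM in the control libraries. Of 9 tested inhibitors of activation, 3 higher genes and 1 lower had an unadjusted p under 0.05, and DESeq2 called 2 higher. Among these was Tns3, a tensin, at 20.3 CPM on average in the Cre libraries and 13.8 CPM in the control libraries (edgeR adjusted p = 0.273, DESeq2 adjusted p = 0.0479). Flna, which encodes filamin A, a competitor of talin for the beta tail, was at 2994 ± 261.5 CPM in the Cre libraries and 3246 ± 156.1 CPM in the control libraries. Cytip, which binds cytohesin-1, was at 715.2 CPM and Tns1 at 520.3 CPM in the Cre libraries, against 619.4 and 625.5 CPM in the control libraries.

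Of 20 tested genes of outside-in signalling, 1 higher gene and 2 lower had an unadjusted p under 0.05, and the median log2 fold change was -0.04. DESeq2 called 1, Ptk2, the focal adhesion kinase, at 2.91 ± 0.73 CPM in the Cre libraries and 1.58 ± 0.27 CPM in the control libraries (SD, n = 3 each; edgeR adjusted p = 0.185, DESeq2 adjusted p = 0.0255). The related kinase Ptk2b, far more abundant here, was at 382.6 ± 34.3 CPM in the Cre libraries and 436.3 ± 9.89 CPM in the control libraries. The Src-family kinase Fgr was at 367.1 CPM in the Cre libraries and 409.6 CPM in the control libraries. Sirpa, the inhibitory receptor, and its ligand Cd47 were at 2432 and 899.5 CPM in the Cre libraries, and at 2549 and 910.0 CPM in the control libraries. All Cre libraries lay below all control libraries for 4 of the 20, beside 9.22% of all tested genes. Ptk2b and Fgr were among those 4.

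Of 16 tested genes of the actin linkage, 1 higher gene and 1 lower had an unadjusted p under 0.05, and DESeq2 called 0. Coro1a, a coronin, was at 494.1 ± 70.6 CPM in the Cre libraries and 616.5 ± 52.0 CPM in the control libraries without overlap (log2 fold change -0.32, edgeR adjusted p = 0.289), and vinculin (Vcl) at 6.87 CPM in the Cre libraries and 4.88 CPM in the control libraries with overlap. Lcp1, the leukocyte plastin, was at 2580 CPM in the Cre libraries and 2576 CPM in the control libraries. Of 10 tested membrane partners of beta-2 integrins, 4 higher genes and 0 lower had an unadjusted p under 0.05. DESeq2 called 1, the inhibitory Fc receptor Fcgr2b, at 230, 331 and 299 CPM in the Cre libraries, against 227, 203 and 208 CPM in the Car4fl/fl libraries (edgeR adjusted p = 0.217, DESeq2 adjusted p = 0.0129). The activating receptor Fcgr3 was at 422.9 ± 53.3 CPM in the Cre libraries and 352.7 ± 39.0 CPM in the control libraries, also without overlap. Of the 4 tetraspanins in the list, Cd63 was at 208.8 CPM in the Cre libraries and 109.1 CPM in the control libraries, with overlap. Cd9 was at 2998 CPM in the Cre libraries and 3428 CPM in the control libraries, without overlap. Cd81 and Cd82 overlapped, with log2 fold changes of 0.14 and 0.0023.

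Of 13 tested transcription factors known to act at integrin genes, 1 higher gene and 2 lower had an unadjusted p under 0.05, and the median log2 fold change was -0.05. DESeq2 called 1, Runx3, known in lymphocytes for acting on integrin genes. It had 0.609, 0.759 and 1.13 CPM in the Cre libraries, against 0.232, 0.266 and 0.158 CPM in the Car4fl/fl libraries, a low level without overlap (log2 fold change 1.91 ± 0.35 SE; edgeR adjusted p = 0.146; DESeq2 adjusted p = 0.00466). Lymphocyte and natural killer cell markers summed to 9.36 to 13.8 CPM in the Cre libraries and 7.90 to 9.71 CPM in the control libraries. Of the 9 tested, 4 lay above all control libraries, beside 8.63% of all tested genes. The part of these markers in the Runx3 values was not tested. Junb was at 1154 ± 36.6 CPM in the Cre libraries and 1293 ± 72.1 CPM in the control libraries without overlap. The myeloid factors Cebpa and Irf8 were at 593.7 and 149.5 CPM in the Cre libraries, and at 686.1 and 162.0 CPM in the control libraries. Fos was at 1622 ± 309.1 CPM in the Cre libraries and 1715 ± 330.4 CPM in the control libraries.

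**Figure D4:**
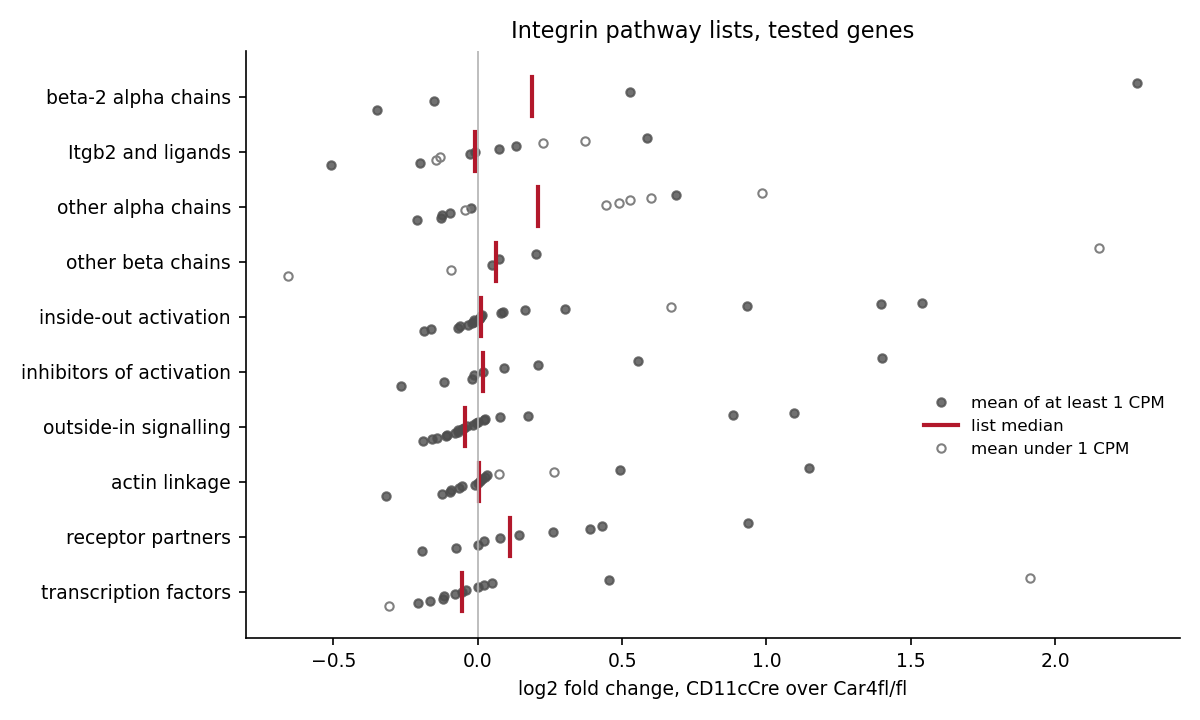
Log2 fold change, Cre over Car4fl/fl (x axis), of every tested gene of the 10 integrin pathway lists (rows). Filled points have a mean of at least 1 CPM, open points less, and the red line is the list's median, between -0.05 for the transcription factors and 0.21 for the alpha chains of other families.

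**Figure D5:**
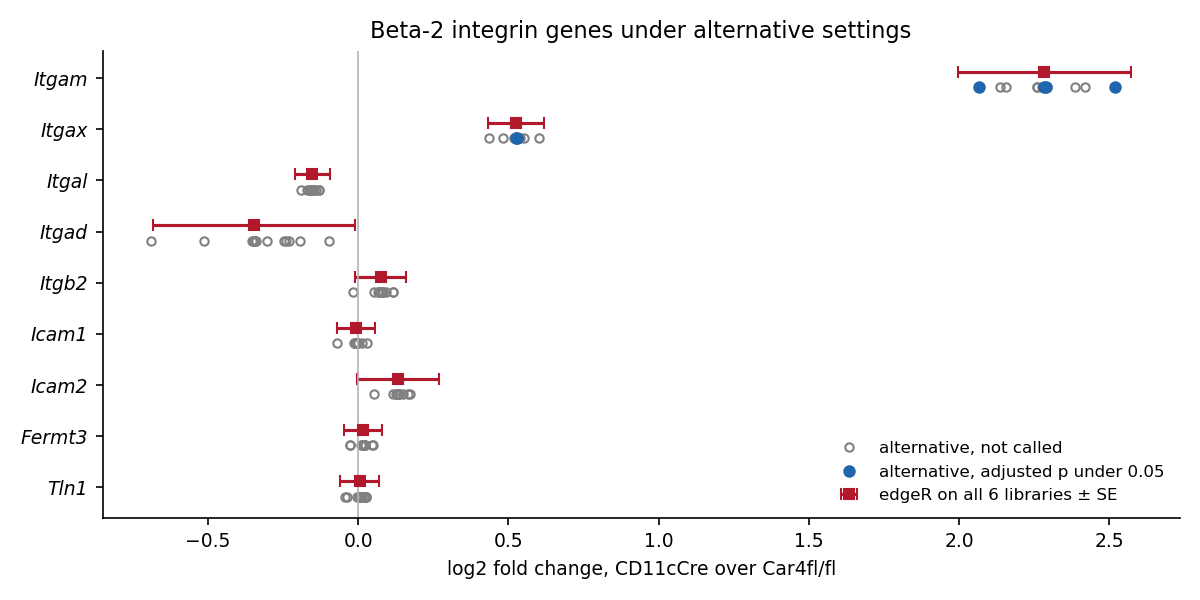
Log2 fold change, Cre over Car4fl/fl (x axis), of each member under the reported fit and the 15 alternatives. Itgam lies between 2.07 and 2.52 and Itgax between 0.44 and 0.60, while the values of Itgb2, Icam1, Fermt3 and Tln1 fall on both sides of 0.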

How the data were processed

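Polyadenylated RNA from 6 mice, 3 per genotype per the design text, was sequenced, 1 library per mouse. The authors deposited whole-number counts per gene, not normalized. Per the submitters' processing notes, STAR 2.6.1, featureCounts 1.6.4 and cutadapt 2.5 were among the tools, and the build was GRCm38. Which annotation and strand setting were used for counting was not given in the sources used here. Where genes overlap, on either strand, their reads therefore cannot be told apart. Each column was mapped to its mouse by the library name in its label. Of 46078 gene identifiers, 45143 were found in GENCODE M21, used for coordinates and merged exon lengths. Where 1 of 214 symbols stood on several rows, the row with the most counts was used.

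EdgeR 4.0.16 in R 4.3.3 was run on the counts, using filterByExpr at a minimum count of 10 (15147 genes left), TMM scaling (factors 0.9857 to 1.015), glmQLFit and a two-sided glmQLFTest with Benjamini-Hochberg adjustment over all tested genes, called below 0.05. The common biological coefficient of variation came to 14.4%. Standard errors are the log2 fold change over the square root of F. DESeq2 1.42.0 and limma 3.58.1 were alternatives, beside other scalings, filters and dispersion settings, the replicate number as a block, and leaving out each library. The code was tested on simulated counts. RPKM is TMM-normalised CPM per kilobase of merged exons. The 95% intervals of log2 fold changes come from the same fit and include the variation between libraries, while floors of 3 counts cover counting error only. Libraries of 1 group differed by more than sampling noise (chi-square per degree of freedom 22.1 to 58.6), and each was counted as 1 replicate, as the labels give it. Plots were made in Python 3.11.15 with matplotlib 3.10.9.

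Named were the 9 members, Car4, up to 4 genes of smallest p and the 2 most abundant of each list, the tested genes of the locus, summarised by range, and the 5 genes most like Itgam and like Itgax. Some genes that this rule names are not reported here. The members and lists were chosen with earlier results of these data known. Kat8, Hsd3b7, Pycard and the marker genes given with values were chosen after their values were seen.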

Additional observations from a re-analysis of the deposited data

How the results depend on the processing

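All 9 members were tested under each of the 15 alternatives, except Icam2 under the filter of 5 CPM. None was called lower under any, and 2 were called higher by DESeq2 and by edgeR without a filter (Itgam and Itgax). Leaving out 1 library gave 0 to 1 called higher. Over all genes DESeq2 called 345 higher and 219 lower, edgeR without a filter 340 and 183, and robust dispersions 0 lower. Leaving out 1 library gave 1 to 249 called higher and 0 to 52 lower, where the highest counts came without Cre replicate 1 (249 higher, 37 lower) and without control replicate 3 (15 higher, 52 lower). The causes were not tested. Itgam, Itgax, Itgal, Itgad, Icam2 and the ratio of Itgam to Itgax kept their direction throughout (ratio difference 1.54 with a pseudocount of 1 CPM).

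Members near 0 changed sign in some fits: Itgb2 at -0.018 without Cre replicate 2, Icam1 at 0.0304 without control replicate 1 and 0.0107 without control replicate 3, Fermt3 at -0.0265 without Cre replicate 2 and -0.0292 without control replicate 2, and Tln1 at -0.00298 with library sizes alone, -0.0443 without Cre replicate 1 and -0.0365 without control replicate 1. With 1 library left out, the other ends of the ranges were 0.116 for Itgb2, -0.0711 for Icam1, 0.0488 for Fermt3 and 0.0267 for Tln1.

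The labels give both groups the replicate numbers 1 to 3 without saying what they mark. Same-numbered libraries did not deviate together (r of -0.00977, -0.156 and 0.0691), so the numbers were not taken as pairs. With the replicate number as a block edgeR called 8 genes higher and 2 lower, and no member. Median shifts of all genes between scalings stayed under 0.01 on the log2 scale.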
